A study of Mus musculus with 7 samples.

Results

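Matrix metalloproteinases, urokinase, the urokinase receptor and their inhibitors were examined after knockdown of Dpep2, a gene for a membrane dipeptidase known to cleave leukotriene D4, in the mouse macrophage-like cell line RAW264.7. The genes were the 9 rows of the count table, of 55417, that carry the symbols Mmp9, Mmp12, Mmp13, Mmp14, Plau, Plaur, Serpinb2, Timp1 and Timp2. They were chosen by symbol and function while the levels and calls of these same 7 libraries were already known, so their calls are given here as a description. Cells carried 1 of 2 hairpins against Dpep2, shDpep2.968 (2 libraries) or shDpep2.759 (2 libraries), or the control hairpin shNT (3 libraries). All groups were the same line with a hairpin. The delivery of the hairpins, the clonality of each line and the origin of replicates from separate cultures are details not given in the sources used here. A p-value below therefore reflects the spread between these libraries, and that spread may be technical.

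The matrix metalloproteinases are zinc enzymes that are made as inactive precursors and cut collagen, elastin and other matrix proteins once activated. Urokinase, bound to its receptor on the cell surface, turns plasminogen into plasmin, which digests fibrin and can also activate metalloproteinase precursors. Macrophages secrete both systems together with their inhibitors: TIMP proteins block metalloproteinases, and serpins, PAI-2 among them, block urokinase. AP-1 factors are known regulators of several of these genes, and promoters are shown for that reason.

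The start-site windows in the RefSeq promoter table (GRCm38.p6, 250 bases before to 50 after the annotated start) covered 7 of the 9 genes: Mmp12, Mmp13, Mmp14, Plaur, Serpinb2, Timp1 and Timp2. The AP-1 letters TGANTCA, which read the same on both strands, occurred in 4 of these 7, namely Mmp12, Mmp13, Plaur and Serpinb2. They occurred in 7.81% of 32851 windows of the same length in the table. Those 4 windows and that of Timp1, an inhibitor without the letters, are printed 5′ to 3′ on the coding strand, with TGANTCA in capitals. All lie on the plus strand, at chr9:7347124-7347423 (Mmp12), chr9:7272264-7272563 (Mmp13), chr7:24462233-24462532 (Plaur), chr1:107511173-107511472 (Serpinb2) and chrX:20869916-20870215 (Timp1).
Mmp12: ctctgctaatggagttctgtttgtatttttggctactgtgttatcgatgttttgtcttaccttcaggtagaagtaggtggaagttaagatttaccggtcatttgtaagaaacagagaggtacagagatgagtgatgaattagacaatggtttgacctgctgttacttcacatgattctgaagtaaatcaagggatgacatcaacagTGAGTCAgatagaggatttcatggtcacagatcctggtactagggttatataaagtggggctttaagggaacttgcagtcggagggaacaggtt
Mmp13: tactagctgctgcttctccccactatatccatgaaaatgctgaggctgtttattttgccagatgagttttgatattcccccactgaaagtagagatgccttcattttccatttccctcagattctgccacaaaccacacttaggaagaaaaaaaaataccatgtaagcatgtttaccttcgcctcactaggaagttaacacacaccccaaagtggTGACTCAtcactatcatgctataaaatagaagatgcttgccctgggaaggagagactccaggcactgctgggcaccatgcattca
Plaur: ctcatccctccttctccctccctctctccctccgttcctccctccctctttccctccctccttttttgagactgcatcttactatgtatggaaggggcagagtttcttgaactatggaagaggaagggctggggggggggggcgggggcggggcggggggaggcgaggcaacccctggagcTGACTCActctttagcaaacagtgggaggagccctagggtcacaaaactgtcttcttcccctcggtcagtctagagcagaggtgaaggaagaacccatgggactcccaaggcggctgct
Serpinb2: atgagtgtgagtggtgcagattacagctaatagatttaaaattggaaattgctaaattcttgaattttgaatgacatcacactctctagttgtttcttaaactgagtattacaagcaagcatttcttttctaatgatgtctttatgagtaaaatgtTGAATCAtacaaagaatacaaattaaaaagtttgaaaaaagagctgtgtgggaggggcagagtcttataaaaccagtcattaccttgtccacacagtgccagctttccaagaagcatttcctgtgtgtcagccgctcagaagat
Timp1: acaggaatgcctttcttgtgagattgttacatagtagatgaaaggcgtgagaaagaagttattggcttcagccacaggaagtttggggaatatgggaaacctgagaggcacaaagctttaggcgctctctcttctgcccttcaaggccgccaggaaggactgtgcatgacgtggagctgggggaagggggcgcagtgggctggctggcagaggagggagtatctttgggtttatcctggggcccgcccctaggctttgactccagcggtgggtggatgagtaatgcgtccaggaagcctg

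The AP-1 letters began at position -44 from the annotated start in Mmp12, -35 in Mmp13, -69 in Plaur and -94 in Serpinb2. The TATA letters TATAAA, searched on the coding strand, occurred in Mmp12, Mmp13 and Serpinb2 and in 8.32% of the counted windows. In the printed windows they began at position 5, downstream of the annotated start, in Mmp12, at -16 in Mmp13 and at -29 in Serpinb2. Windows of Mmp13, Mmp14, Plaur and Timp1 held the Ets letters AGGAAG on either strand, as did 35.4% of the counted windows. Mmp12 and Serpinb2 have more than 1 annotated start, and the window printed is the one nearest to the principal GENCODE M21 transcript. The other Mmp12 window also held AGGAAG. The motifs did not overlap one another. A match describes the letters only and is not a measured binding site. A window without TGANTCA may still hold a variant of these letters, as that of Timp1 does with tgagtaa.

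Libraries held 16548648 to 18401060 counts, and levels are given as counts per 1000000 counts of the library size scaled by TMM (CPM). Dpep2 stood at 17.9 to 24.9 CPM in the 4 libraries with a Dpep2 hairpin, against 52.1 to 60.3 CPM in the 3 with shNT. Of 10 macrophage markers 9 were tested, and among them Csf1r, the receptor for macrophage colony-stimulating factor, stood at 1076 to 1398 CPM in all libraries. The tenth, Mertk, had at most 0.347 CPM. As a fit across all 13329 tested genes, edgeR's quasi-likelihood test gave Benjamini-Hochberg adjusted p-values, and a gene is called below 0.05.

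In the comparison of both hairpins averaged against shNT, 5 of the 9 genes were called, all higher: Mmp9, Mmp12, Mmp13, Plau and Serpinb2. Mmp14, Plaur and Timp1 were tested and not called, and Timp2 was too low to be tested. Over all tested genes 7.59% were called in that comparison, and 3.44% were called higher. All 4 hairpin libraries lay above all 3 shNT libraries for Mmp9, Mmp12 and Mmp13, as for 9.03% of tested genes. The median log2 fold change of the 8 tested genes was 0.70, against 0.00 over all tested genes. The single-hairpin comparisons share the shNT libraries and give 3 calls with shDpep2.968 and 4 with shDpep2.759, all higher, where 5.25% and 4.73% of tested genes were called.

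**Figure D1:**
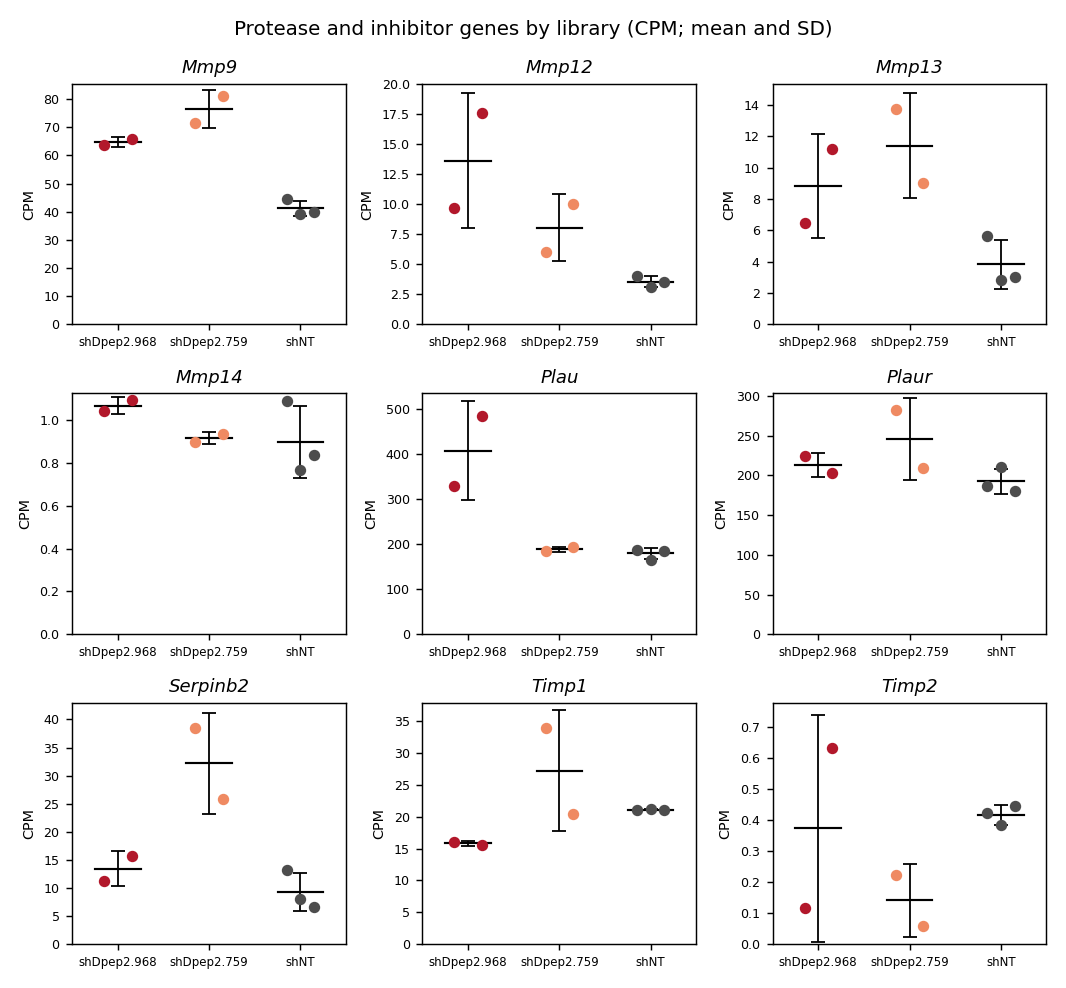
Each panel plots 1 gene, with the level in CPM on a linear axis from 0 and the 3 hairpin groups across. Points are libraries, horizontal lines are group means and bars are SD; Mmp9, Mmp12 and Mmp13 were above shNT in all 4 hairpin libraries, Plau was highest in both shDpep2.968 libraries, and Serpinb2 was highest in both shDpep2.759 libraries.

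Mmp9, the gelatinase that digests denatured and basement-membrane collagen, was higher with both hairpins. It had 63.5 and 65.9 CPM in shDpep2.968 cells and 71.5 and 81.2 CPM in shDpep2.759 cells, against 44.4, 39.2 and 40.1 CPM in shNT cells. Both hairpin groups lay clear of the control, and libraries of a group lay close together. Mmp9 rose 1.57-fold with shDpep2.968 (log2 fold change 0.65, SE 0.12, edgeR adjusted p = 0.00978) and 1.85-fold with shDpep2.759 (0.89, SE 0.12, adjusted p = 0.00116). The difference of shDpep2.968 minus shDpep2.759 was -0.24 on the log2 scale (95% interval -0.53 to 0.05, adjusted p = 0.416). The averaged call held in all 7 fits that left out 1 library, with adjusted p of 0.000261 to 0.0153. The shDpep2.968 call was lost when library 2 (adjusted p = 0.129) of shDpep2.968 or library 2 (0.0599) or 3 (0.0635) of shNT was left out.

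Mmp12, the macrophage elastase, had the largest fold change of the 8 tested genes in the averaged comparison (2.93-fold). It had 9.66 and 17.6 CPM in shDpep2.968 cells and 6.06 and 10.02 CPM in shDpep2.759 cells, against 4.05, 3.12 and 3.52 CPM in shNT cells. No hairpin library overlapped the control range, but the libraries within each hairpin group were far apart. Mmp12 rose 3.82-fold with shDpep2.968 (log2 fold change 1.93, SE 0.28, edgeR adjusted p = 0.00307) and 2.25-fold with shDpep2.759 (1.17, SE 0.29, adjusted p = 0.0376). The difference of shDpep2.968 minus shDpep2.759 was 0.76 (95% interval 0.11 to 1.41) and did not pass after adjustment (adjusted p = 0.262). It passed with no low-count filter (0.0369) or when library 2 (adjusted p = 0.0413) of shDpep2.759 was left out. The averaged call held in all 7 fits that left out 1 library, with adjusted p of 0.000221 to 0.0358. The shDpep2.968 call was lost when library 2 (adjusted p = 0.0597) of shDpep2.968 was left out, with a log2 fold change of 1.44. The shDpep2.759 call was lost when library 2 (adjusted p = 0.185) of shDpep2.759 or library 1 (0.0641) or 2 (0.165) or 3 (0.164) of shNT was left out, with limma-voom (0.0969) and without robust estimation (0.0537). On the genome Mmp12 overlaps Mmp1b on the opposite strand, but Mmp1b had 0 counts in every library.

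Mmp13, a collagenase that cuts fibrillar collagen, stood above the control range in all 4 hairpin libraries. It had 6.48 and 11.2 CPM in shDpep2.968 cells and 13.7 and 9.02 CPM in shDpep2.759 cells, against 5.62, 2.85 and 3.02 CPM in shNT cells. The lowest hairpin library stood just above library 1 of shNT, the highest control. Mmp13 rose 2.99-fold with shDpep2.759 (log2 fold change 1.58, SE 0.33, edgeR adjusted p = 0.0252). With shDpep2.968 the log2 fold change was 1.21 (SE 0.34) and did not pass (adjusted p = 0.0694), although DESeq2 called it (adjusted p = 0.00741), as did a fit of the compared groups only (0.0303) or one with no low-count filter (5.84e-06). It also passed when library 1 (adjusted p = 0.0343) or 2 (0.0362) of shDpep2.759 or library 1 (0.0130) of shNT was left out. With no low-count filter the SE of the averaged Mmp13 change was 0.19, against 0.30 with the filter, so its adjusted p is not directly comparable. The difference of shDpep2.968 minus shDpep2.759 was -0.37 (95% interval -1.16 to 0.42, adjusted p = 0.653). The averaged call (2.63-fold, adjusted p = 0.0195) was lost when library 2 (adjusted p = 0.0624) of shDpep2.968 or library 2 (0.0934) or 3 (0.106) of shNT was left out. The shDpep2.759 call was lost when library 1 (adjusted p = 0.0993) of shDpep2.759 or library 2 (0.0887) or 3 (0.113) of shNT was left out.

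Mmp14, a membrane-anchored metalloproteinase that activates the precursor of another family member, was close to the detection limit. It had 18 and 19 counts in shDpep2.968 cells and 16 and 16 counts in shDpep2.759 cells, against 18, 14 and 15 counts in shNT cells, so the groups overlapped. Its averaged log2 fold change was 0.14 (95% interval -0.56 to 0.85, edgeR adjusted p = 0.837), which leaves changes of up to 1.80-fold higher within the interval.

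Plau, which encodes urokinase, separated the hairpins. It had 329 and 484 CPM in shDpep2.968 cells and 184 and 192 CPM in shDpep2.759 cells, against 188, 165 and 186 CPM in shNT cells. Both shDpep2.968 libraries stood above all others, while the shDpep2.759 libraries lay within or just above the control range. Plau rose 2.26-fold with shDpep2.968 (log2 fold change 1.18, SE 0.15, edgeR adjusted p = 0.00125), a call that held in all 7 fits that left out 1 library. With shDpep2.759 the log2 fold change was 0.07 (95% interval -0.27 to 0.40, adjusted p = 0.858). The direct comparison of shDpep2.968 with shDpep2.759 gave 1.11 (SE 0.17, 95% interval 0.74 to 1.48, adjusted p = 0.0141). Plau alone of the 8 tested genes was called there, where 0.84% of all tested genes were called. That call was lost when library 2 (adjusted p = 0.159) of shDpep2.968 was left out, with a log2 fold change of 0.80. The averaged call (1.54-fold, adjusted p = 0.0122) was lost when library 2 (adjusted p = 0.0944) or 3 (0.0718) of shNT was left out, and with both hairpins as 1 group (0.293).

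Plaur, the urokinase receptor, was not called in any of these comparisons. It had 224 and 202 CPM in shDpep2.968 cells and 282 and 209 CPM in shDpep2.759 cells, against 186, 210.5 and 180.4 CPM in shNT cells. The groups overlapped, and library 1 of shDpep2.759 alone stood clearly above the rest. The averaged log2 fold change was 0.25 (95% interval -0.01 to 0.51, edgeR adjusted p = 0.239). It passed with a correction for GC content and transcript length, chosen after seeing the data (0.31, adjusted p = 0.0299). With shDpep2.759 alone it was 0.35 (adjusted p = 0.193), and it passed when library 2 (adjusted p = 0.0347) of shDpep2.759 was left out or with the same correction (0.0359).

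Serpinb2, which encodes the urokinase inhibitor PAI-2, was highest with the other hairpin. It had 11.2 and 15.6 CPM in shDpep2.968 cells and 38.5 and 25.8 CPM in shDpep2.759 cells, against 13.1, 8.11 and 6.65 CPM in shNT cells. Both shDpep2.759 libraries stood above all others, and the shDpep2.968 libraries overlapped the control range. Serpinb2 rose 3.47-fold with shDpep2.759 (log2 fold change 1.80, SE 0.29, edgeR adjusted p = 0.00908). With shDpep2.968 the log2 fold change was 0.53 (95% interval -0.15 to 1.21, adjusted p = 0.319). The difference of shDpep2.968 minus shDpep2.759 was -1.26 (95% interval -1.98 to -0.54) and missed the threshold (adjusted p = 0.119). DESeq2 (adjusted p = 0.00222), a fit of those groups only (0.0224) and a fit with no low-count filter (3.18e-08) called that difference, as did fits in which library 2 (adjusted p = 0.0310) of shDpep2.759 or library 1 (0.0338) of shNT was left out. With no low-count filter the SE of the averaged Serpinb2 change was 0.150, against 0.255 with the filter, so its adjusted p is not directly comparable. The shDpep2.759 call was lost when library 2 (adjusted p = 0.0508) of shNT was left out. The averaged call (2.24-fold, adjusted p = 0.0277) was lost when library 2 (adjusted p = 0.103) of shDpep2.968 or library 2 (0.141) or 3 (0.0772) of shNT was left out, and with both hairpins as 1 group (0.200). Serpinb2 overlaps its neighbour Serpinb10 on the same strand, which had at most 0.293 CPM.

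Timp1, a secreted metalloproteinase inhibitor, had group means on opposite sides of the control mean, and neither difference was called. It had 16.1 and 15.6 CPM in shDpep2.968 cells and 33.9 and 20.5 CPM in shDpep2.759 cells, against 21.03, 21.3 and 21.1 CPM in shNT cells. The shDpep2.968 libraries were below every other library, and library 1 of shDpep2.759 alone was above the control range. The log2 fold change was -0.42 with shDpep2.968 (95% interval -0.82 to -0.01, edgeR adjusted p = 0.205) and 0.37 with shDpep2.759 (95% interval -0.03 to 0.76, adjusted p = 0.293). The shDpep2.759 value was 0.68 (adjusted p = 0.0173) with library 2 of that hairpin left out and -0.0442 with its library 1 left out. The difference of shDpep2.968 minus shDpep2.759 was -0.78 (95% interval -1.22 to -0.34), with an adjusted p of 0.0980. It passed with DESeq2 (0.0321), with the GC and length correction (0.0346), with no low-count filter (0.00142) and when library 2 (adjusted p = 0.00115) of shDpep2.759 was left out.

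Timp1 overlaps Syn1, a neuronal synapsin gene on the opposite strand. Syn1 had 8.79 and 6.97 CPM in shDpep2.968 cells and 17.2 and 15.1 CPM in shDpep2.759 cells, against 16.1, 16.8 and 13.9 CPM in shNT cells. Like Timp1, it was lowest in both shDpep2.968 libraries, and it fell by 0.98 on the log2 scale with that hairpin (edgeR adjusted p = 0.00719). The libraries were stranded, but the strand setting of the counting is not given in the sources used here. The overlap was found from whole gene spans, and a sharing of exons was not examined. Whether any reads were shared between Timp1 and Syn1 is therefore not known.

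Timp2, another metalloproteinase inhibitor, had 2 and 11 counts in shDpep2.968 cells and 4 and 1 counts in shDpep2.759 cells, against 7, 7 and 8 counts in shNT cells. It was removed by the filter on low counts. In a fit with no such filter its averaged log2 fold change was -0.83 (SE 0.64, edgeR adjusted p = 0.636), so no difference was detectable at this depth. Timp2 also overlaps Cep295nl on the same strand, but Cep295nl had 0 counts in every library.

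**Figure D2:**
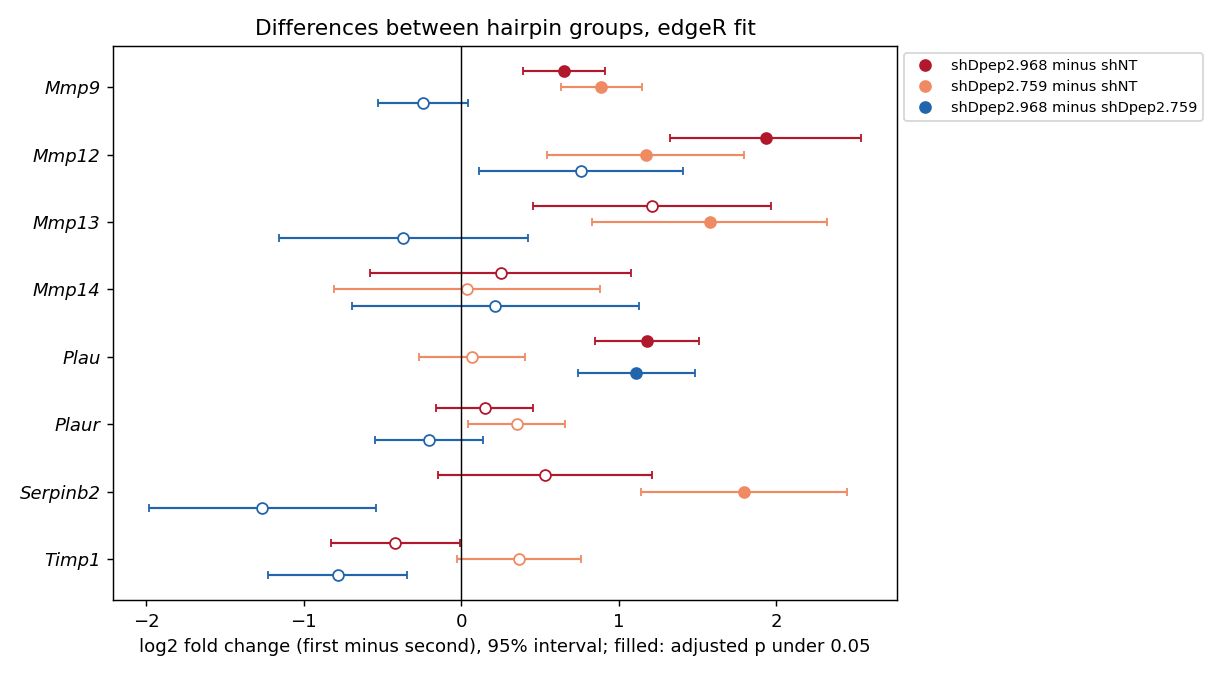
Points are log2 fold changes, first group minus second, with 95% intervals for the 8 tested genes; each colour is 1 comparison and filled points have an adjusted p under 0.05. Mmp9 and Mmp12 are filled for both hairpins against shNT, Plau for shDpep2.968 and for the difference between hairpins, and Mmp13 and Serpinb2 for shDpep2.759.

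Levels of different genes were compared per kilobase of the principal transcript. Plaur was the highest of the 9 in shNT cells, at 119.8 to 139.8 CPM per kilobase, followed by Plau at 70.6 to 80.2. Timp1 came next, at 23.8 to 24.1, then Mmp9 at 12.3 to 13.97 and Serpinb2 at 3.33 to 6.57. Mmp13 (1.07 to 2.10) and Mmp12 (0.866 to 1.12) overlapped, so their order is not set. Mmp14 (0.295 to 0.419) and Timp2 (0.103 to 0.121) were lowest. In the hairpin groups the order changed in places. In shDpep2.968 cells Plau (140.5 and 207) reached the level of Plaur (149 and 134), and Mmp9 (19.995 and 20.8) stood above Timp1 (18.2 and 17.6). In shDpep2.759 cells Serpinb2 (19.3 and 12.9) came nearer to Mmp9 (22.5 and 25.6), all in CPM per kilobase.

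**Figure D3:**
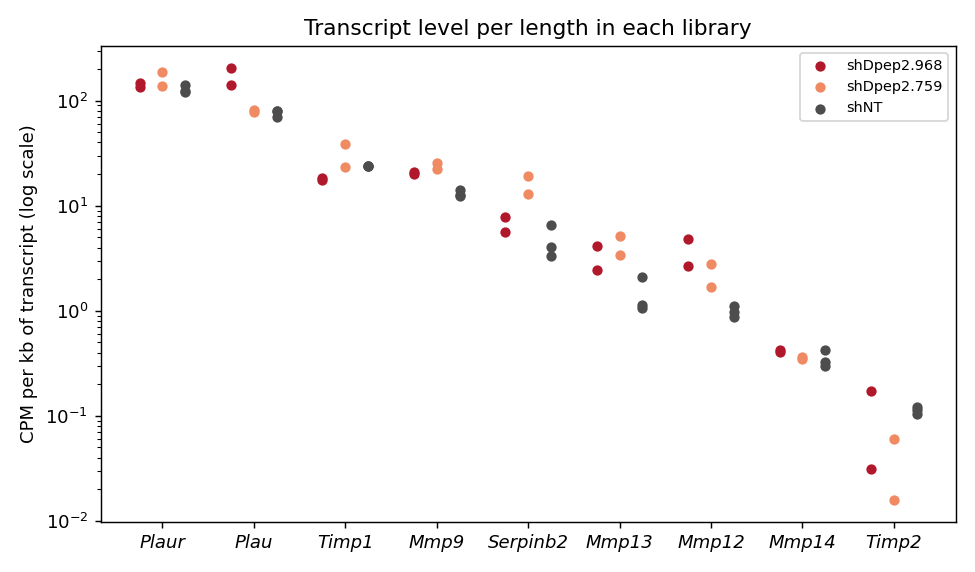
Each point is 1 library's level in CPM per kilobase of transcript on a log axis, with the 9 genes ordered by their mean in shNT cells and the 3 groups side by side. Plaur and Plau lead, and Mmp14 and Timp2 stand lowest, at no more than 0.422 CPM per kilobase in any library.

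Ratios within a library set protease transcripts against those of an inhibitor or, for Plau to Plaur, of the receptor, both per kilobase. The Mmp9 to Timp1 ratio was 1.10 and 1.18 in shDpep2.968 cells and 0.586 and 1.10 in shDpep2.759 cells, against 0.587, 0.512 and 0.529 in shNT cells. It was higher than in every control in 3 of the 4 hairpin libraries, and library 1 of shDpep2.759, the library with the most Timp1, was the exception. The Plau to Serpinb2 ratio was 24.997 and 26.4 in shDpep2.968 cells and 4.08 and 6.35 in shDpep2.759 cells, against 12.2, 17.4 and 23.8 in shNT cells. The hairpin groups lay on opposite sides of the control, without overlap. The Plau to Plaur ratio was 0.944 and 1.54 in shDpep2.968 cells and 0.420 and 0.591 in shDpep2.759 cells, against 0.648, 0.505 and 0.662 in shNT cells. It was above every control in both shDpep2.968 libraries and overlapped the control in shDpep2.759 cells. These ratios describe transcripts and were not tested, and they say nothing of enzyme activity.

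**Figure D4:**
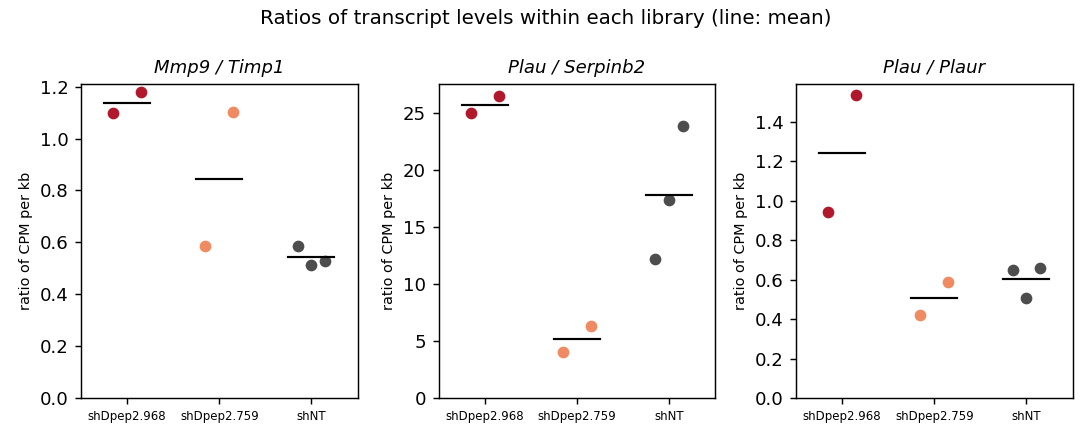
Points are ratios of CPM per kilobase within 1 library, on linear axes from 0, by group; lines are group means. The Plau to Serpinb2 ratio is above the controls in both shDpep2.968 libraries and below them in both shDpep2.759 libraries.

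The other genes of these systems were described from lists by family or function. Of 19 further metalloproteinase genes Mmp19 alone was expressed highly enough to be tested. Mmp19, a broad-acting family member, had 19.9 and 18.3 CPM in shDpep2.968 cells and 34.7 and 27.9 CPM in shDpep2.759 cells, against 26.7, 25.4 and 24.4 CPM in shNT cells. It was lowest in both shDpep2.968 libraries, as Timp1 was, and the difference of shDpep2.968 minus shDpep2.759 was -0.71 on the log2 scale (95% interval -1.05 to -0.38, edgeR adjusted p = 0.0555). None of 9 further metalloproteinase inhibitors was tested, and all 9 together had at most 0.329 CPM in a library.

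The plasminogen system beyond the 9 genes had 7 of 17 genes tested and none called by edgeR in the averaged comparison (median log2 fold change 0.08). With no adjustment 1 had a p under 0.05, and DESeq2 called 1. Plg, the plasminogen gene itself, had 0 counts in all 7 libraries, and Plat, the tissue-type activator, had at most 0.603 CPM. The highest 2 of the list were Eno1, a glycolytic enzyme known to bind plasminogen at the cell surface, and Lrp1, a receptor that clears urokinase bound to its inhibitor. Eno1 had 1178 and 1188 CPM in shDpep2.968 cells and 1046 and 1092 CPM in shDpep2.759 cells, against 1022, 1100.3 and 1039.6 CPM in shNT cells, with an averaged log2 fold change of 0.09 (95% interval -0.12 to 0.31, edgeR adjusted p = 0.627). Lrp1 had 1229 and 776 CPM in shDpep2.968 cells and 881 and 1324 CPM in shDpep2.759 cells, against 729.5, 810.4 and 729 CPM in shNT cells, with an averaged log2 fold change of 0.47 (95% interval 0.09 to 0.86, adjusted p = 0.131).

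Clade B serpins, the intracellular serpin family to which Serpinb2 belongs, had 9 of 19 further genes tested, of which 4 rose and none fell in the averaged comparison. Their median log2 fold change was 0.94, against 0.00 over all tested genes, of which 3.44% were called higher. Serpinb9b and Serpinb9 belong to the family branch that inhibits granzyme-type proteases, and Serpinb9b rose 3.10-fold (log2 fold change 1.63, SE 0.18, edgeR adjusted p = 0.000237). It had 12.7 and 19.5 CPM in shDpep2.968 cells and 22.4 and 24.4 CPM in shDpep2.759 cells, against 7.37, 6.14 and 5.31 CPM in shNT cells, with no overlap. Serpinb8 rose 1.78-fold (adjusted p = 0.00331) and Serpinb9 rose 2.07-fold (adjusted p = 0.00835). Serpinb1c rose 2.13-fold (adjusted p = 0.0277), at a control level of 1.42 ± 0.243 CPM (SD, n = 3). Serpinb1c was called with shDpep2.968 (adjusted p = 0.0179) and not with shDpep2.759 (adjusted p = 0.218), and its difference between the hairpins had an adjusted p of 0.335. All 4 were higher in every hairpin library than in every shNT library, as were 9.03% of all tested genes. The Serpinb9 call was lost when library 2 (adjusted p = 0.0571) or 3 (0.0656) of shNT was left out. The Serpinb1c call was lost when library 2 (adjusted p = 0.103) of shDpep2.968 or library 1 (0.0675) or 2 (0.0692) or 3 (0.139) of shNT was left out, with limma-voom (0.0506) and with both hairpins as 1 group (0.0625). Serpinb6a, the highest of the list, had a log2 fold change of 0.08 (adjusted p = 0.747). Serpinb9 with Serpinb9b, and the Serpinb1 genes among themselves, are closely related, and how any shared reads were divided is uncertain.

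**Figure D5:**
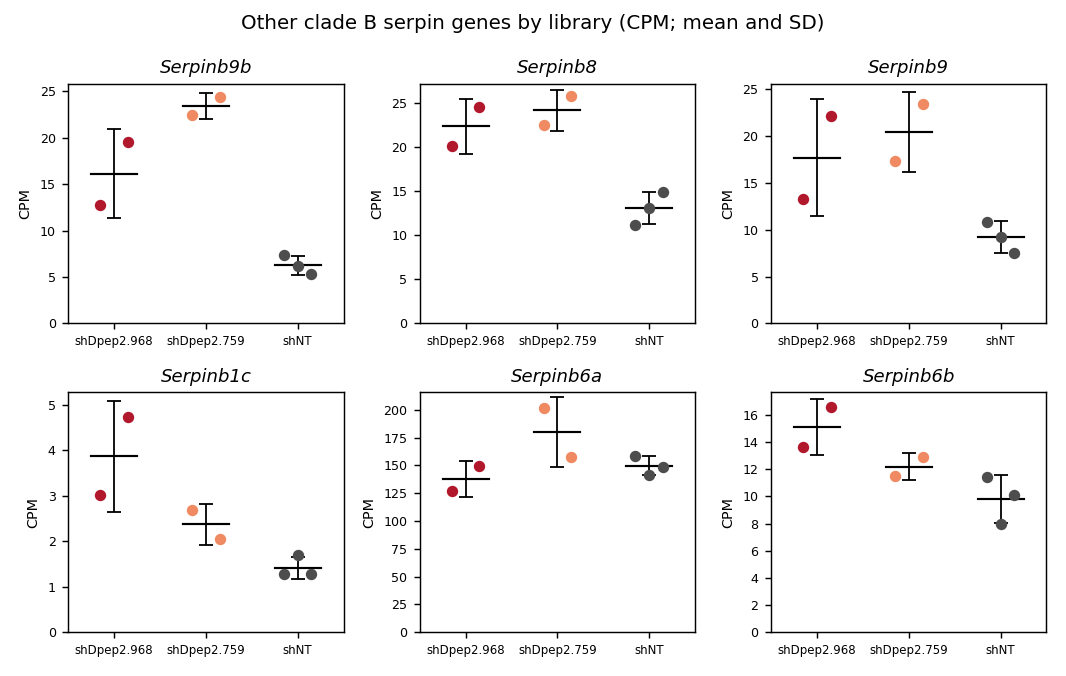
Each panel plots 1 clade B serpin gene, with the level in CPM on a linear axis from 0 and the groups across; points are libraries, lines means and bars SD. Serpinb9b, Serpinb8, Serpinb9, Serpinb1c and Serpinb6b stand above all shNT libraries in all 4 hairpin libraries, the last without a call (adjusted p = 0.0854 in edgeR), whereas Serpinb6a overlaps.

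Among genes that activate or hold metalloproteinases at the cell surface, 1 of 10 tested was called in the averaged comparison. This was St14, which encodes the membrane serine protease matriptase. In that comparison 7.59% of all tested genes were called, near the share in this list and in the ADAM and cathepsin lists below. St14 had 72.7 and 67.3 CPM in shDpep2.968 cells and 83.04 and 66.6 CPM in shDpep2.759 cells, against 112, 136 and 130.3 CPM in shNT cells. Every hairpin library lay below every control, and St14 fell by 0.80 on the log2 scale (SE 0.11, edgeR adjusted p = 0.00115). Of 11 ADAM and ADAMTS genes tested, Adam33, a member of the disintegrin and metalloproteinase family, alone was called and rose 2.40-fold (adjusted p = 0.000526). Of 16 cathepsin-list genes tested, Ctsc, which activates serine proteases of granules, alone was called and rose 1.48-fold (adjusted p = 0.0168). It had 308 and 329.8 CPM in shDpep2.968 cells and 691 and 605 CPM in shDpep2.759 cells, against 365, 289 and 269 CPM in shNT cells, so the high libraries were those of shDpep2.759. The difference of shDpep2.968 minus shDpep2.759 was -1.02 (adjusted p = 0.0161). The averaged Ctsc call was lost when library 2 (adjusted p = 0.0635) of shDpep2.968 or library 2 (0.114) or 3 (0.135) of shNT was left out, and with both hairpins as 1 group (0.287).

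Matrix proteins had 10 of 25 genes tested, with 1 higher and 2 lower in the averaged comparison, where 7.59% of all tested genes were called. Spp1, the osteopontin gene and a known substrate of metalloproteinases, had 10562 and 12511 CPM in shDpep2.968 cells and 13876 and 9852 CPM in shDpep2.759 cells, against 20140.1, 19516 and 20007 CPM in shNT cells. Every hairpin library lay below every control, and Spp1 fell by 0.77 on the log2 scale (SE 0.13, edgeR adjusted p = 0.00346). Lamb2, a laminin chain, fell by 0.80 (adjusted p = 0.0101), a call lost when library 2 (adjusted p = 0.0587) or 3 (0.0759) of shNT was left out. With single hairpins Lamb2 was called with shDpep2.759 (adjusted p = 0.00938) and not with shDpep2.968 (adjusted p = 0.126). Dcn, the decorin gene, rose 2.58-fold (adjusted p = 0.0274) at a control level of 0.546 CPM. Its level relative to shNT was 1.67-fold with shDpep2.968 (adjusted p = 0.289) and 3.98-fold with shDpep2.759 (adjusted p = 0.00778), and the difference between the hairpins was not called (adjusted p = 0.168). The Dcn call held in 1 of the 7 fits that left out 1 library, that without library 2 of shDpep2.759, and in the other fits the adjusted p reached 0.115. It was also lost with DESeq2 (0.0549) and with both hairpins as 1 group (0.0753).

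The AP-1, Ets and NF-kB protein families include known regulators of Mmp9, Plau and Timp1. Among 20 tested genes of these factors, 1 was called higher and 1 lower in the averaged comparison, with a median log2 fold change of 0.03. That is near the 7.59% called over all tested genes. Fos rose 1.32-fold (edgeR adjusted p = 0.0281), and Etv4, an Ets factor, fell by 0.72 in log2 units (adjusted p = 0.0473). The Fos level was 1.21-fold with shDpep2.968 (adjusted p = 0.193) and 1.45-fold with shDpep2.759 (adjusted p = 0.0185) relative to shNT. Etv4 was called with neither hairpin alone (adjusted p = 0.123 and 0.106). The Fos call was lost when library 1 (adjusted p = 0.0703) or 2 (0.0570) of shDpep2.968 or library 1 (0.0539) or 2 (0.135) or 3 (0.168) of shNT was left out, and with both hairpins as 1 group (0.0717). The Etv4 call was lost when library 2 (adjusted p = 0.157) of shDpep2.968 or library 2 (0.0791) of shDpep2.759 or library 2 (0.254) or 3 (0.150) of shNT was left out, with limma-voom (0.0692), without robust estimation (0.0643) and with both hairpins as 1 group (0.0738).

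Some markers of other cell states moved with these genes, and their part in the results was not tested. Osteoclasts are known for high Mmp9, and of 8 osteoclast markers 6 were tested and 3 rose: Acp5 (3.88-fold), Atp6v0d2 (3.14-fold) and Ocstamp (1.79-fold). The list summed to 196 to 205 CPM in shDpep2.968 cells and 202 to 219 CPM in shDpep2.759 cells, against 99.9 to 116 CPM in shNT cells, while the calcitonin receptor gene Calcr was at 0 in all libraries. Most of the difference in these sums was Acp5, with means of 84.2 CPM (shDpep2.968), 118.6 CPM (shDpep2.759) and 25.8 CPM (shNT). Ctsk (2.48-fold, edgeR adjusted p = 0.0538), Nfatc1 (1.22-fold, 0.202) and Dcstamp (1.08-fold, 0.704) were tested and not called. Over all tested genes 3.44% were called higher. Ocstamp, like Plau, was highest in both shDpep2.968 libraries, with 18.2 and 15.8 CPM in shDpep2.968 cells and 5.22 and 5.51 CPM in shDpep2.759 cells, against 5.68, 5.64 and 4.64 CPM in shNT cells. It was 3.19-fold the control with shDpep2.968 (edgeR adjusted p = 0.000381) and 1.01-fold with shDpep2.759 (adjusted p = 0.985), and the difference between the hairpins was called (adjusted p = 0.00394). The averaged Atp6v0d2 call was lost when library 2 (adjusted p = 0.0732) of shNT was left out, and that of Ocstamp with both hairpins as 1 group (edgeR adjusted p = 0.283).

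Neutrophil markers summed to 34.7 to 50.7 CPM in shDpep2.968 cells and 100.5 to 237 CPM in shDpep2.759 cells, against 17.9 to 34.8 CPM in shNT cells. Nearly all of that was S100a8, with 33.9 and 49.5 CPM in shDpep2.968 cells and 236 and 99.8 CPM in shDpep2.759 cells, against 33.1, 18.5 and 17.04 CPM in shNT cells. It was the 1 tested marker of 10 and was not called (edgeR adjusted p = 0.0899). The granule genes Ltf and Ngp and the surface marker Ly6g were at 0. Fibroblast markers summed to 2.20 to 2.42 CPM in shDpep2.968 cells and 3.59 to 3.69 CPM in shDpep2.759 cells, against 0.786 to 1.86 CPM in shNT cells. Of 8 such markers 2 were tested and 1, Dcn, was called higher in the averaged comparison, with Col1a2 at 0 throughout. In that comparison 3.44% of all tested genes were called higher. Of the 9 tested macrophage markers Adgre1 and Fcgr1 rose in the averaged comparison and with shDpep2.759, and none was called with shDpep2.968. The single-hairpin shares over all tested genes were 4.73% called with shDpep2.759 and 5.25% with shDpep2.968. Adgre1 was 1.13-fold with shDpep2.968 (adjusted p = 0.387) and 1.95-fold with shDpep2.759 (adjusted p = 0.000455), and the difference of shDpep2.968 minus shDpep2.759 was -0.79 on the log2 scale (edgeR adjusted p = 0.0164). Fcgr1 was 1.33-fold with shDpep2.968 (adjusted p = 0.137) and 1.71-fold with shDpep2.759 (adjusted p = 0.0112). Itgam was below every control in both shDpep2.968 libraries, without a call (log2 fold change -0.48, adjusted p = 0.0581). The list summed to 15065 to 15154 CPM in shDpep2.968 cells and 17041 to 20745 CPM in shDpep2.759 cells, against 14446 to 15885 CPM in shNT cells. The averaged Fcgr1 call was lost when library 2 (edgeR adjusted p = 0.0643) or 3 (0.119) of shNT was left out. With both hairpins as 1 group the averaged calls of Fcgr1 (edgeR adjusted p = 0.0528) and Adgre1 (0.134) were both lost. The averaged Fcgr1 call was also lost without library 2 of shDpep2.968, at a log2 fold change of 0.58, which leaves that hairpin with 1 library. In bulk RNA fewer cells of a type and less RNA per cell cannot be told apart.

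Across all tested genes, the log2 fold change was lower at higher GC content, more with shDpep2.968 (Spearman -0.35) than with shDpep2.759 (Spearman -0.09). Both are descriptions across genes, which are not independent replicates. After correction for GC content and length Mmp9, Mmp12, Mmp13, Plau and Serpinb2 were still called in the averaged comparison and Plaur joined them.

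Genes with the most similar profile over the 7 libraries were ranked by the root-mean-square difference in log2 CPM, each gene centred on its own mean, among 9512 genes of at least 5 CPM. For Mmp9 these were Rasgef1b (0.075), Zfp811 (0.086) and Parp14 (0.087), where the median gene stood at 0.43. For Mmp12 they were Il7r (0.23), Gbp9 (0.27) and Plin2 (0.28), with a median of 0.86. Plau was nearest to Hal (0.14), Tnnt2 (0.18) and Bhlhe41 (0.20), and the median was 0.56. Plaur had Nab2 (0.040), Gtf2f1 (0.041) and Get3 (0.045) nearest, with a median of 0.26, and Timp1 had Cox6c (0.070), Carhsp1 (0.077) and AA414768 (0.080), with a median of 0.37. Likeness of this kind describes 7 libraries in 3 groups and was not tested.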

How the data were processed

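The authors deposited whole-number counts per gene symbol for 7 libraries. Stranded total-RNA libraries were read in pairs, per the labels' protocols. Trim Galore and Salmon are named, with no version, in the submitters' processing notes, and so is the build hg38, which is human although the symbols are mouse. The annotation, the strand setting and a possible rounding of estimates were not given in the sources used here.

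Samples were grouped by hairpin. Counts were fitted in R 4.3.3 with edgeR 4.0.16 (filterByExpr, TMM, robust quasi-likelihood, 1 mean per group over 7 libraries, 4 residual degrees of freedom). Benjamini-Hochberg adjustment ran over 13329 tested genes. The common biological coefficient of variation was 13.8%. Libraries of a group differed by more than counting noise: the chi-square statistic of their counts was 14.2 to 40.96 for each degree of freedom.

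Alternatives were other size factors, other low-count filters, DESeq2 1.42.0, limma-voom (limma 3.58.1), a replicate block, other fits of the groups, and each library left out. With no low-count filter, the averaged SE was smaller for Mmp12, Mmp13, Plau, Plaur, Serpinb2 and Timp1, and larger for Mmp9 and Mmp14. Adjusted p-values from that fit are therefore not on the same footing as those of the filtered fit. A correction by splines on GC content and transcript length (GENCODE M21, values for 95.7% of tested genes) was chosen after seeing the data. Transcript lengths came from GENCODE M21 and promoters from RefSeq. The members, the pathway and marker lists and the tests were chosen with earlier results of these data known. Named genes were the 9 members, Dpep2, up to 4 called genes per list with the smallest adjusted p or, with none called, the 2 highest, and the 3 nearest profiles. Other genes, such as Plg, Plat, Serpinb6a, Serpinb6b, Syn1 and unlisted markers, were named for their role or position after their values were seen.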

Additional observations from a re-analysis of the deposited data

Results flagged for a closer look

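Plau differed between the hairpins by a direct test. Its log2 fold change of shDpep2.968 minus shDpep2.759 was 1.11 (edgeR quasi-likelihood adjusted p = 0.0141), with 329 and 484 CPM in shDpep2.968 cells and 184 and 192 CPM in shDpep2.759 cells. Both shDpep2.968 libraries were higher than both shDpep2.759 libraries. It was 0.80 (adjusted p = 0.159) with library 2 of shDpep2.968 left out.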

How the results depend on the processing

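Of 544 refits of the 8 tested genes' log2 fold changes, 487 kept direction and side of the threshold, 26 lost a call, 22 gained one and 9 changed sign, all of the last in values not called. The sign changes were Timp1, averaged (0.0284 with both hairpins as 1 group; -0.2308 to 0.1315 leaving out 1 library), Mmp14 with shDpep2.759 (-0.0056 with the replicate block; -0.0880 to 0.1908), Plau with shDpep2.759 (-0.0096 to 0.1003), Timp1 with shDpep2.759 (-0.0442 to 0.6784) and Plaur between hairpins (-0.3949 to 0.0272). Of the 9 genes, 5 were called in the averaged comparison, 3 with both hairpins as 1 group and 2 to 5 leaving out 1 library. The ranges were 1 to 4 around 3 for shDpep2.968, 1 to 5 around 4 for shDpep2.759 and 0 to 4 around 1 between hairpins. Between hairpins 4 were called with no low-count filter, 3 with DESeq2, and 2 each with the replicate block, the GC and length correction and the compared groups only.

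Over all genes 1012 were called in the averaged comparison, against 1590 with no low-count filter, 404 with the replicate block, 1955 with the GC and length correction, 551 with both hairpins as 1 group and 321 to 1468 leaving out 1 library. For shDpep2.968 the count was 700, against 1443, 308 and 1620 in the first 3 of these settings, 1350 with the compared groups only and 69 to 1309 leaving out 1 library. For shDpep2.759 it was 630, against 1131, 312 and 1556, and 253 to 768. Between hairpins it was 112, against 669 with no low-count filter, 355 with DESeq2, 54 with limma-voom, 63 without robust estimation, 451 with the GC and length correction, 61 with the compared groups only and 6 to 1070 leaving out 1 library. The cause was not tested. Of 153 refits of the counts called per pathway list, 120 stayed within 1.5 times; clade B serpins had 4 calls, and 2 with library 2 or 3 of shNT left out. Where a hairpin is left with 1 library, it is assumed to vary like the other groups.

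Whether replicate numbers pair the samples is not given in the sources used here. Deviations of same-numbered libraries from their group means correlated between -0.23 and 0.07 across genes. With 2 libraries in a hairpin group the deviations mirror each other, so these correlations cannot decide whether a culture or batch was shared. With the replicate block, Mmp9 with shDpep2.968 had a log2 fold change of 0.63 (adjusted p = 0.0734) and Serpinb2 between hairpins -1.22 (adjusted p = 0.0117). The block also ended the averaged calls of Serpinb1c, Ctsc, Lamb2, Dcn, Fos, Etv4, Adgre1, Fcgr1 and Ocstamp. Depth limits Mmp14 and Timp2, which had at most 19 counts in a library.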
